A study of Mus musculus with 11 samples.

Results

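Efflux pumps are the membrane proteins that move drugs, hormones and conjugated metabolites out of cells, and 8 of their genes were followed here in the mouse liver: Abcb1a, Abcb1b, Abcg2, Abcc1, Abcc3, Abcc4, Abcc6 and Slc47a1. They were found by symbol among the 36788 Ensembl gene rows of the liver RNA-seq table, and all 8 were present. The set was chosen from results of the FSH against saline contrast, so the FSH and saline values of these 8 genes are given as a description, without p-values. How many of them passed a threshold is stated once, beside the share over all genes.

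The livers came from wild-type C57BL/6 female mice over 12 weeks of age that had been ovariectomized (OVX) and fed a high-fat diet (HFD), which both groups shared. Of the 11 mice, 5 were injected daily with follicle-stimulating hormone (FSH), the pituitary gonadotropin that acts on the ovary, and 6 with saline. The contrast asks what FSH changes in the liver when the ovary is absent. FSH was thus supplied from outside to animals without ovarian hormones, and each library was made from 1 animal's liver, a mixture of cell types.

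Apart from Slc47a1, these genes belong to the ATP-binding cassette (ABC) family, which couples ATP hydrolysis to export. In hepatocytes, P-glycoprotein (Abcb1a and Abcb1b) and BCRP (Abcg2) sit in the canalicular membrane and empty into bile, while MRP3 (Abcc3), MRP4 (Abcc4) and MRP6 (Abcc6) sit in the basolateral membrane and empty towards blood. MRP1 (Abcc1) is low in resting hepatocytes. Slc47a1 encodes MATE1, a proton-coupled exporter of organic cations that is no ABC protein. P-glycoprotein is encoded by a single gene in humans and by the tandem pair Abcb1a and Abcb1b in mice, and it exports glucocorticoids besides many drugs.

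Because the pair are close paralogs, their sequences bear on how their reads can be told apart. On GRCm38 (GENCODE M21), Abcb1a spans chr5:8660077-8748575 and Abcb1b spans chr5:8798147-8866315, both on the plus strand and 49.6 kb apart. Their coding sequences, each 3831 bases with the stop codon in 28-exon transcripts, were identical at 3367 of 3822 aligned bases (88.1%). The identity was uneven. The longest run without a difference was 338 bases across exons 13 and 14, within the first nucleotide-binding domain. Its first 120 bases, which lie in exon 13 at chr5:8702387-8702506 in Abcb1a and at chr5:8824707-8824826 in Abcb1b, show a stretch where a read cannot be assigned from its letters:
Abcb1a and Abcb1b: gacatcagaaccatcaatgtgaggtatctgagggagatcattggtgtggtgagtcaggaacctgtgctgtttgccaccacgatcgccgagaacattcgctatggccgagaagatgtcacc

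By contrast, a window of 90 bases in exon 16, in the linker that joins the N-terminal and C-terminal parts of the transporter, held 29 differences, the most of any ungapped window of that length. It lies at chr5:8714894-8714983 in Abcb1a and chr5:8827333-8827422 in Abcb1b, and capitals mark the bases that differ:
Abcb1a: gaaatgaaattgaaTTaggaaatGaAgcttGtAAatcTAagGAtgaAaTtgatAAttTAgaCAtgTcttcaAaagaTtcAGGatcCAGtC
Abcb1b: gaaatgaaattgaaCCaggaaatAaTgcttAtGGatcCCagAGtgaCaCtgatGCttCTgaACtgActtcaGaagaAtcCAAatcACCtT

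Of all 3732 windows of 100 bases in the Abcb1a coding sequence, 367 (9.83%) were also found in Abcb1b. Most of the coding sequence therefore separates the pair at the read length of the study. How reads that match both were counted is not given in the sources used here, so the split between them is uncertain and their sum is given as well. With Abcb4, the next gene of the cluster, Abcb1a shared 11 of these 3732 windows (0.295%) and Abcb1b shared 0. If reads that match several genes were left out, the sum would miss them.

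Promoter windows of 250 bases before to 50 bases after a start were at hand from RefSeq (GRCm38.p6) for 4 of the 8 genes, in 7 windows. The windows of the Abcb1 pair are shown because the results turn on this pair. That of Abcb1a belongs to a first exon 93.0 kb upstream of the start in GENCODE. In both, capitals mark matches on either strand to the CCAAT box, the GC box (GGGCGG) and the antioxidant response core (TGACNNNGC). They also mark matches, with at most 1 letter off, to the D-box (TTATGTAA or TTACGTAA), the site of PAR-bZIP factors.
Abcb1a, chr5:8566841-8567140, plus strand: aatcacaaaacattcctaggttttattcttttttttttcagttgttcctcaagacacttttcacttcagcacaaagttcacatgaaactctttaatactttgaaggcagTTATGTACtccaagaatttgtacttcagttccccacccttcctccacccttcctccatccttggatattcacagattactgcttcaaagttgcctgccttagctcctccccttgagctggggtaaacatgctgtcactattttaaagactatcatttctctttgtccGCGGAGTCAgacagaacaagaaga
Abcb1b, chr5:8797897-8798196, plus strand: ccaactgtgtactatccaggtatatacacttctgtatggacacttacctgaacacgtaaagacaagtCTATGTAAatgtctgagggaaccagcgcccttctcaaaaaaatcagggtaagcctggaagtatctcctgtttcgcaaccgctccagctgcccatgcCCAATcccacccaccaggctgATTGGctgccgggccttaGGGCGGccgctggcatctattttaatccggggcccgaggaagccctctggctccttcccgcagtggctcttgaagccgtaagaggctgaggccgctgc

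The Abcb1a window was AT-rich, with a GC content of 40.3% against a median of 52.7% over all 32851 windows, and the Abcb1b window had 55.0%. Abcb1b held 2 CCAAT matches and 1 GC box, and Abcb1a held neither. Of all windows, 37.4% held at least 1 CCAAT match and 35.7% at least 1 GC box. None of the 7 windows held an exact D-box, as 1.06% of all windows did. With 1 letter off, Abcb1a held TTATGTAC and Abcb1b held CTATGTAA, as 17.4% of all windows held such a match. Abcb1a held an antioxidant response core after the start, as 12.4% of windows held one. Neither window of the pair held an E-box (CACGTG), a xenobiotic response core (GCGTG) or a nuclear receptor core (AGGTCA), which 7.15%, 32.4% and 16.3% of windows held. These matches describe letters and not bound sites.

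Levels were compared between genes only per kilobase of annotated exon. In the saline livers the pumps fell into an abundant and a scarce group. Abcc3 had 41.7 ± 4.02 CPM per kb (SD, n = 6), Slc47a1 had 38.1 ± 3.42 and Abcc6 had 27.5 ± 2.66. Abcc3 and Slc47a1 did not differ beyond their spread. Abcg2 followed with 4.20 ± 0.475 CPM per kb and Abcb1a with 1.23 ± 0.462. The scarcest were Abcc4 (0.493 ± 0.101), Abcb1b (0.355 ± 0.283) and Abcc1 (0.0877 ± 0.0202), and Abcc4 and Abcb1b did not differ beyond their spread. Annotated exons include rare transcript ends, which lowers the value of Abcc1 with its 15.1 kb in particular. With FSH the same division held, with Abcb1a at 3.07 ± 0.542 CPM per kb (SD, n = 5).

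Abcb1a was the pump with the largest difference between the groups. In CPM, it measured 17.9, 20.9, 15.0, 17.1 and 13.1 in FSH livers 1, 2, 3, 4 and 6. In saline livers 1 to 6 it measured 6.64, 10.0, 9.36, 4.26, 3.98 and 6.03. The lowest FSH liver lay above the highest saline liver, and the group means, 16.8 ± 2.97 (n = 5) and 6.72 ± 2.53 (n = 6), stood 2.50-fold apart. On the log2(CPM + 0.5) scale used throughout, the difference was 1.32 (SE 0.21). In whole-liver RNA, more cells expressing a gene and more RNA per cell cannot be told apart.

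**Figure D1:**
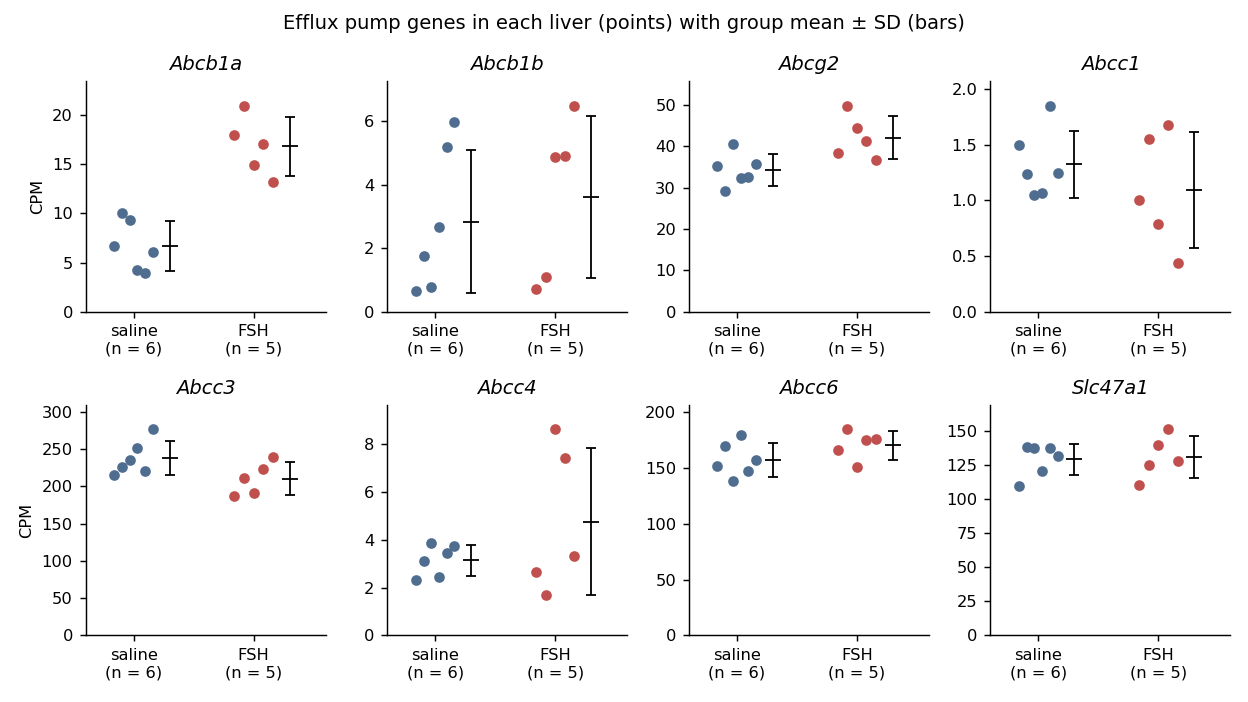
CPM of each of the 8 efflux pump genes (one panel each, axis from 0) in the saline livers (blue, n = 6) and FSH livers (red, n = 5), with the group mean and SD to the right of the points. Only in the Abcb1a panel do the groups not overlap, from 3.98 to 10.0 CPM with saline and from 13.1 to 20.9 CPM with FSH, while Abcb1b spreads over about the same range in both groups.

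Its sister Abcb1b had values of 0.703, 1.11, 4.87, 4.91 and 6.49 CPM in FSH livers 1, 2, 3, 4 and 6. The saline livers 1 to 6 had 0.664, 1.75, 0.787, 2.66, 5.18 and 5.97 CPM. Both groups thus held livers near or below 1 CPM and livers near 5 or 6 CPM, a 9.22-fold range with FSH and an 8.99-fold range with saline. The log2 difference between the groups was 0.29 (SE 0.53), and it was 0.02 without FSH liver 6 and 0.65 without FSH liver 1. Counts behind these values ran from 8 to 96 reads, few enough that counting error adds to the spread. The spread within groups (SD of 1.10 on the log2 scale) was nevertheless above that of 99.1% of the 1373 genes of like mean level, whose median was 0.29.

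Summed over the pair, which does not depend on how counted reads were divided between them, the FSH livers had 18.6 to 22.1 CPM and the saline livers 6.92 to 12.0 CPM. The means were 20.4 ± 1.52 (n = 5) and 9.55 ± 2.17 (n = 6), again without overlap. Abcb1b made up between 3.77% and 33.0% of the sum in FSH livers and between 7.76% and 56.6% in saline livers. Within groups the pair moved in opposite directions, with r = -0.63 and rho = -0.65 over the 11 libraries after the group means were taken off. Abcb1a was lowest in saline livers 4 and 5 and in FSH liver 6, in each of which Abcb1b lay above its group mean on the log2 scale.

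**Figure D2:**
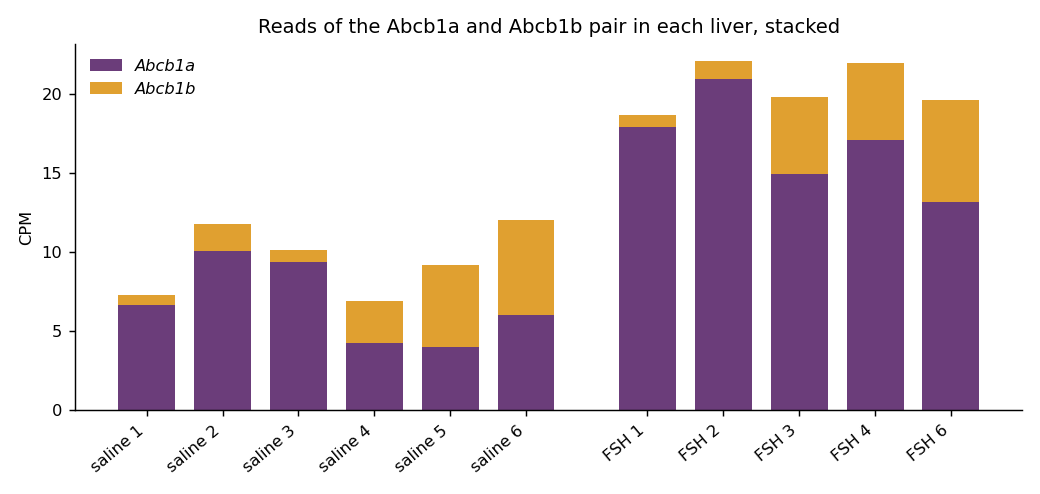
CPM of Abcb1a (purple) and Abcb1b (orange) stacked for each of the 6 saline and 5 FSH livers. All FSH bars (18.6 to 22.1 CPM) stand above all saline bars (6.92 to 12.0 CPM), and the orange share differs widely between livers of both groups, from 3.77% to 56.6%.

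The other canalicular pump, Abcg2, exports urate and sulfate conjugates. FSH livers 1, 2, 3, 4 and 6 had 38.3, 49.9, 44.5, 41.3 and 36.7 CPM, and saline livers 1 to 6 had 35.4, 29.2, 40.5, 32.3, 32.5 and 35.7 CPM. FSH livers 2, 3 and 4 lay above all saline livers, and the groups overlapped through saline liver 3, the highest of its group. The log2 difference was 0.29 (SE 0.10).

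Slc47a1, whose product exports metformin and other cations into bile, had 110, 125, 140, 151 and 128 CPM in the FSH livers in the same order. The saline values were 110, 138, 137, 120, 137 and 131 CPM. The groups lay on top of each other, with a log2 difference of 0.02 (SE 0.09).

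Among the basolateral pumps, Abcc3, which returns glucuronide conjugates and bile acids to blood, was the most abundant. It had 187, 211, 191, 223 and 240 CPM in the FSH livers. In the saline livers it had 216, 226, 235, 252, 221 and 277 CPM. The FSH values lay lower on average but overlapped, for a log2 difference of -0.18 (SE 0.09).

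Abcc6, whose loss causes ectopic calcification and whose product mediates ATP release from hepatocytes, had 166, 185, 151, 176 and 176 CPM in the FSH livers. The saline livers had 152, 170, 138, 180, 147 and 157 CPM. The difference was 0.12 (SE 0.09) on the log2 scale with overlapping groups.

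Abcc4, an exporter of cyclic nucleotides and of bile acids, was uneven within the FSH group alone. FSH livers 3 and 4 had 8.61 and 7.43 CPM, whereas livers 1, 2 and 6 had 2.66, 1.70 and 3.33 CPM. The saline livers 1 to 6 had 2.32, 3.13, 3.85, 2.43, 3.43 and 3.73 CPM, which overlapped the lower FSH livers and lay below FSH livers 3 and 4. The log2 difference was 0.33 (SE 0.31), and it was 0.08 without FSH liver 3 and 0.60 without FSH liver 2.

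Abcc1, an exporter of glutathione conjugates, was at the limit of what this depth resolves, with 5 to 26 reads per library. It had 1.00, 1.55, 0.793, 1.68 and 0.438 CPM in the FSH livers and 1.49, 1.24, 1.05, 1.07, 1.85 and 1.24 CPM in the saline livers. The FSH livers held the 3 lowest values, and the groups overlapped (log2 difference -0.25, SE 0.22). The difference was -0.07 without FSH liver 6 and -0.38 without FSH liver 4.

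For the whole table, limma on log2(CPM + 0.5) called 1350 of 12733 tested genes at an adjusted p under 0.05 (10.6%), and 803 without FSH liver 1. At that threshold 6.19% of all tested genes were higher with FSH and 4.41% lower, and of the 8 pumps, 1 was called (Abcb1a, higher). With an absolute log2 fold change over 1 as well, the shares were 0.887% higher and 0.942% lower, with Abcb1a again the single pump. Groups without overlap were found for 3.95% of all genes in the higher and 2.72% in the lower direction, and for Abcb1a alone among the pumps. Since the pumps were chosen from this contrast, nothing is read from these counts. The median log2 difference was 0.20 over the 8 pumps and 0.02 over all tested genes.

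Variation between mice of 1 group set the pumps apart from each other. The SD within groups on the log2 scale was 0.13 for Abcc6, 0.14 for Abcc3, 0.15 for Slc47a1 and 0.17 for Abcg2. It was 0.37 for Abcc1, 0.42 for Abcb1a, 0.62 for Abcc4 and 1.10 for Abcb1b. Against genes of like mean level, the SD of Abcb1a was above that of 95.4%, that of Abcc4 above 96.3% and that of Abcc6 above 21.7%. The abundant pumps were therefore even between mice, and the Abcb1 pair and Abcc4 were not.

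Few of the pumps varied together. Of 28 pairs, 4 had r above 0.5 and 2 had r below -0.5 over the 11 libraries with group means taken off, and the median r was 0.03. The highest was between Abcc4 and Slc47a1 (r = 0.73, rho = 0.85). Abcb1b went with Slc47a1 (r = 0.58), Abcc3 (r = 0.56) and Abcc4 (r = 0.55), and Abcc4 opposed Abcc6 (r = -0.51). These values describe 11 libraries that share 1 sequencing study.

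**Figure D3:**
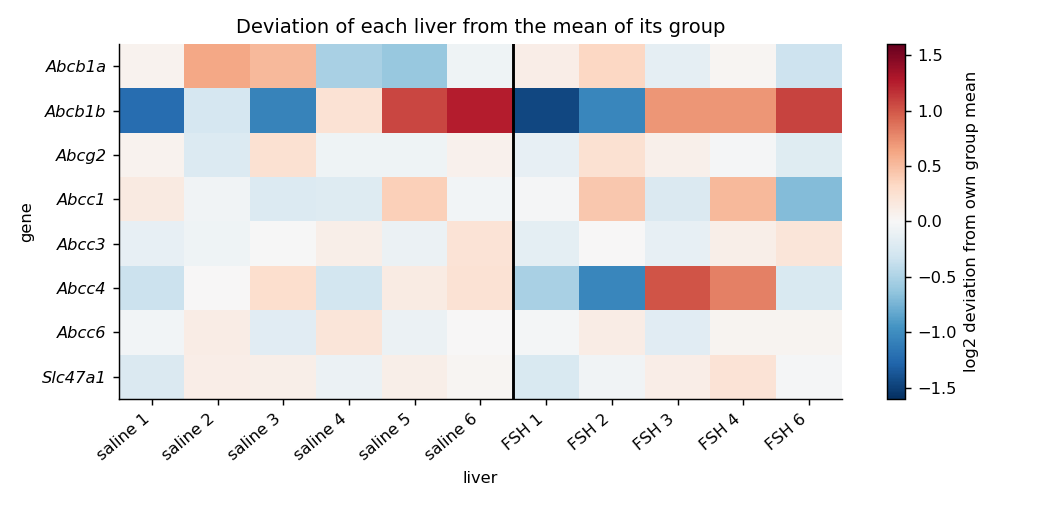
Log2 deviation of each liver from the mean of its own group (colour, red above and blue below) for the 8 efflux pump genes (rows) in 6 saline and 5 FSH livers (columns, divided by the black line). Abcb1b carries the deepest colours in both groups and Abcc4 in the FSH group, whereas the rows of Abcc3, Abcc6 and Slc47a1 are pale.

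Genes whose pattern within groups was most like that of each pump were sought among the 12733 tested genes, by r over the 11 libraries. The highest r of so many genes over so few libraries are large through the search itself, so they are descriptions only. Abcb1a was most like Cct6a (r = 0.95, rho = 0.83) and Sertad2 (r = 0.95, rho = 0.85), and Abcb1b most like Stk17b (r = 0.96, rho = 0.85) and Gm27177 (r = 0.94, rho = 0.87). Gm27177 was at 0 CPM in FSH livers 1 and 2 and in saline livers 1 and 2. Abcg2 was most like Nmt2 (r = 0.93, rho = 0.85) and Acad9 (r = 0.92, rho = 0.84). The nearest genes to Abcc3 were Rhobtb2 (r = 0.97, rho = 0.94) and Adora2a (r = 0.90, rho = 0.92), and to Abcc6 they were Map1lc3b (r = 0.98, rho = 0.95) and Fbxo31 (r = 0.95, rho = 0.97). For Abcc4 they were Srsf10 and Baat (r = 0.90 for both), for Abcc1 Mansc1 and Oxct1 (r = 0.93 for both), and for Slc47a1 Nova2 (r = 0.89) and Atl1 (r = 0.88). None of these 16 genes was called between FSH and saline in limma as described, whereas Mansc1 and Fbxo31 were each called in 2 of the alternatives.

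The other ABC genes give the setting of the pumps in their own family. Of 45 further genes listed, 34 were tested, of which 3 rose, 2 fell and 29 were not called (14.7% called, against 10.6% of all tested genes). This list and those below were chosen with earlier results of these data known, so nothing is read from the shares called. Within subfamilies B, C and G, 17 were tested. The hemitransporters Abcg5 and Abcg8, which together export cholesterol into bile, rose. Abcg5 measured 140, 129, 89.8, 132 and 85.4 CPM in the FSH livers against 58.4 to 69.9 CPM (median 67.8) in the saline livers, a log2 difference of 0.77 (SE 0.13, limma adjusted p = 0.00155). Abcg8 measured 158, 142, 82.4, 134 and 92.6 CPM against 48.9 to 74.6 CPM (median 73.1), a difference of 0.84 (SE 0.17, limma adjusted p = 0.00559). Every FSH liver exceeded every saline liver for both.

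Abcc5, another cyclic nucleotide exporter, fell from 2.80 ± 0.306 CPM with saline to 1.92 ± 0.373 with FSH (log2 difference -0.46, SE 0.14, limma adjusted p = 0.0471). Among the 17 tested genes of subfamilies A, D, E and F, the peroxisomal transporter gene Abcd3 rose (log2 difference 0.70, SE 0.17, limma adjusted p = 0.0148) and Abca8b fell (log2 difference -0.43, SE 0.12, limma adjusted p = 0.0324). The calls of Abcc5 and Abca8b were close to the threshold: they were lost in 11 and 10 of the 23 alternatives, with log2 differences of -0.59 to -0.39 and of -0.48 to -0.35. Of the 5 calls, 3 were kept when FSH liver 1, 3, 4 or 6 or saline liver 5 or 6 was left out, and Abcg5, Abcg8 and Abcd3 kept theirs in all 23. The median log2 difference was 0.11 for subfamilies B, C and G and -0.02 for the others, against 0.02 over all genes. Abcb4, the phospholipid exporter gene that follows Abcb1b on the same strand, was not called (190.7 ± 48.7 against 201.1 ± 29.6 CPM, log2 difference -0.10, SE 0.14, limma adjusted p = 0.736).

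**Figure D4:**
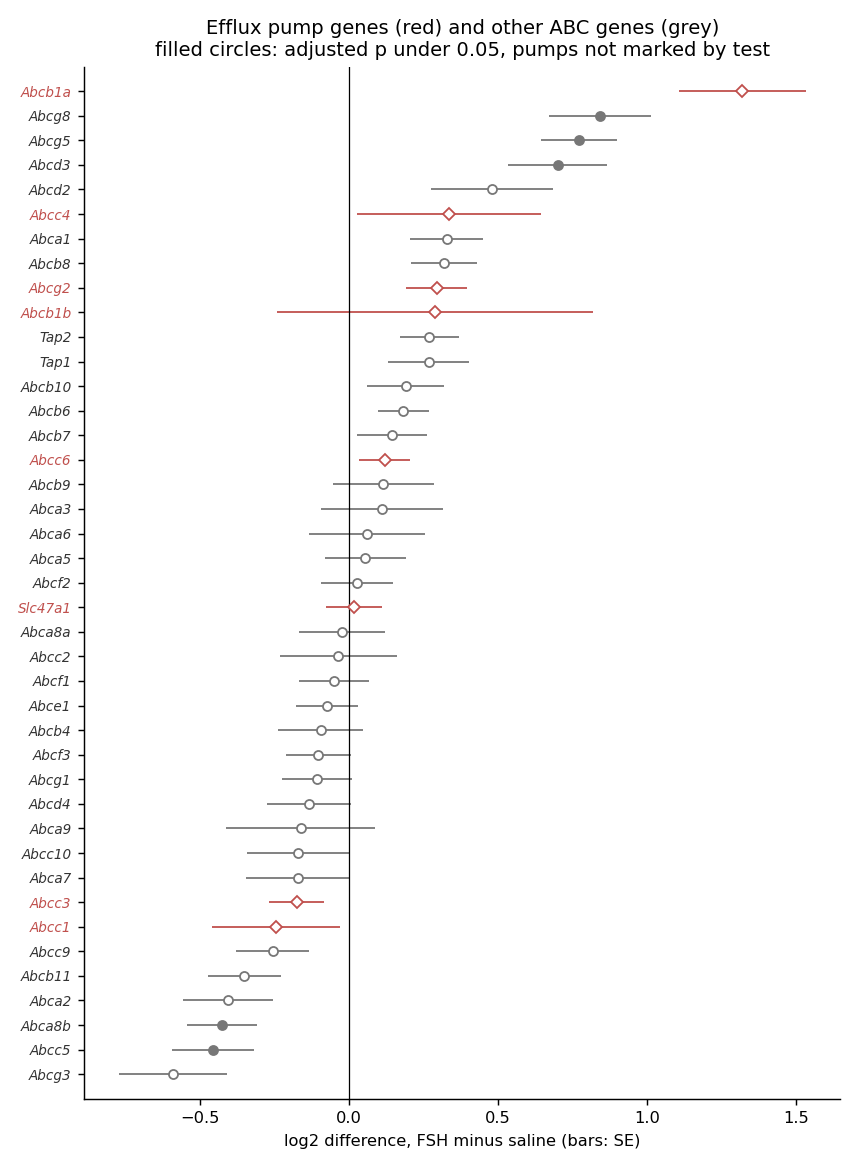
Log2 difference (FSH minus saline, x axis, bars SE) of the 8 efflux pump genes (red diamonds) and of other tested ABC genes (grey circles), sorted by difference, with filled circles for other ABC genes with an adjusted p under 0.05. The pumps are open diamonds, not marked by any test, since they were chosen from this contrast. Abcb1a has the highest value at 1.32, followed by Abcg8 (0.84), Abcg5 (0.77) and Abcd3 (0.70), while the other pumps lie between -0.25 and 0.33 with the widest bar on Abcb1b.

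Transporters of the SLC families that carry drugs and organic ions were listed alongside. Of 24 tested among 41 listed, 2 rose and 1 fell (12.5% called, against 10.6% of all tested genes), with a median log2 difference of 0.17. Slc51b, a subunit of the basolateral bile acid and steroid exporter, measured 3.67, 1.70, 3.28, 2.91 and 1.14 CPM in the FSH livers against 0.555 to 1.05 CPM (median 0.81) in the saline livers. The groups did not overlap, for a log2 difference of 1.14 (SE 0.23, limma adjusted p = 0.00534). The gap was narrow, from 1.05 CPM in saline liver 3 to 1.14 CPM in FSH liver 6, and counts are few at such levels, as for Abcc1. Its partner gene Slc51a was at 0 in every library. The sodium-dependent bile acid uptake gene Slc10a1 rose (0.31, SE 0.09, limma adjusted p = 0.0390) and the organic anion transporter gene Slc22a30 fell (-0.31, SE 0.09, limma adjusted p = 0.0484). These calls were lost in 13 and 12 of the 23 alternatives, with log2 differences of 0.27 to 0.36 and of -0.36 to -0.24, and 1 of the 3 calls, that of Slc51b, was kept when FSH liver 1, 2 or 4 or saline liver 1, 3 or 4 was left out.

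Factors known to control efflux pump genes were next compared. All 25 were tested, of which 3 rose and 3 fell (24% called, against 10.6% of all tested genes), with a median log2 difference of -0.02. Dbp and Tef encode PAR-bZIP activators that bind D-boxes with a daily rhythm, and Nfil3 encodes the repressor that binds the same site. Dbp measured 121, 116, 56.5, 79.6 and 42.6 CPM in the FSH livers against 3.40 to 4.95 CPM (median 4.39) in the saline livers, a log2 difference of 4.02 (SE 0.23, limma adjusted p = 1.15e-07). Tef had 125, 149, 122, 120 and 111 CPM against 48.0 to 69.6 CPM (median 59.5), a difference of 1.08 (SE 0.11, limma adjusted p = 2.07e-05). Nfil3 went the other way, from 56.5 to 86.4 CPM (median 68.0) with saline to 14.2, 16.9, 24.7, 20.0 and 33.2 CPM with FSH (log2 difference -1.68, SE 0.18, limma adjusted p = 4.68e-05). None of the 3 had groups that overlapped, as for Abcb1a. The same held for Esr1 in this list, and for 3.95% of all genes in the higher and 2.72% in the lower direction.

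**Figure D5:**
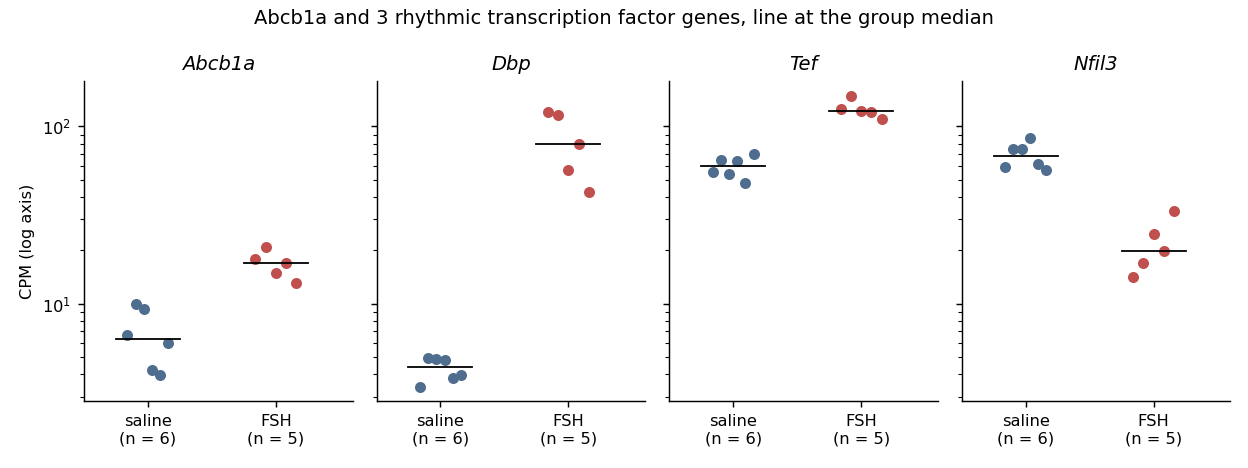
CPM (shared log axis) of Abcb1a, Dbp, Tef and Nfil3 in each saline liver (blue, n = 6) and FSH liver (red, n = 5), with a line at the group median. Abcb1a, Dbp and Tef are higher and Nfil3 lower in every FSH liver than in every saline liver. The widest gap is in Dbp, from at most 4.95 to at least 42.6 CPM.

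Within groups, the correlation of Abcb1a was 0.48 with Dbp, 0.37 with Tef and -0.26 with Nfil3 (r, 11 libraries, group means taken off), and that of Abcb1b was -0.64 with Dbp and 0.45 with Nfil3. Other factors lay further from 0 with Abcb1a. The strongest was Nr1i3, which encodes the xenobiotic receptor CAR, at -0.72 with Abcb1a and 0.68 with Abcb1b. It was followed by Nr1h4 (-0.57), Ahr (0.55), Foxo3 (0.53) and Nr5a2 (0.52), and 6 of 25 factors in all reached an absolute r of 0.5 with Abcb1a. Over the 8 pumps, 36 of 200 such pairs did, the strongest being Abcc6 with Nr1i2 (0.82) and Abcc1 with Arnt (0.78). These are descriptions over 11 libraries in which pumps and factors share reads of the same library. The hour at which each liver was taken is not among the labels, and the part of these factors in the Abcb1a difference was not tested. The third PAR-bZIP gene, Hlf, ranged from 46.5 to 53.7 CPM with FSH and from 40.3 to 53.5 CPM with saline. Of the other factors, the repressor gene Nr0b2 fell (log2 difference -1.32, SE 0.31, limma adjusted p = 0.0142) and the estrogen receptor gene Esr1 rose (0.47, SE 0.11, limma adjusted p = 0.0103). Hnf4a fell (-0.44, SE 0.13, limma adjusted p = 0.0369), a call lost in 9 of 23 alternatives. Nr1i2 and Nr1i3, the xenobiotic receptors PXR and CAR, and Nfe2l2 (NRF2) were not called.

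Genes known to respond to those receptors did not move as one. Of the 22 tested CAR and PXR indicator genes, 5 rose and 4 fell (median 0.11). The cytochrome P450 gene Cyp2b10 fell from 49.6 ± 29.6 to 12.5 ± 3.85 CPM (log2 difference -1.79, SE 0.33, limma adjusted p = 0.00285), and Gadd45b fell by 1.76 (SE 0.35, limma adjusted p = 0.00523). Cyp3a11, another P450 gene, and Aldh1a1 also fell (log2 differences -0.84 and -0.51, limma adjusted p = 0.00338 and 0.0275). The call of Aldh1a1 was lost in 5 of the 23 alternatives, among them those without FSH liver 1, 3 or 4 or saline liver 6, and the calls of Cyp2b10, Gadd45b and Cyp3a11 in 0. The genes that rose were the sulfate donor gene Papss2 (0.77), the glutathione transferase genes Gstm1 (0.46), Gstm2 (0.97) and Gstm3 (0.84), and the P450 reductase gene Por (0.76). Of the 5 rises, 2 were kept without FSH liver 3 or FSH liver 4, those of Papss2 and Gstm2, and the calls of Por and Gstm1 were lost in 15 and 14 of the 23 alternatives.

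Of 16 tested NRF2 indicator genes, 3 rose and 1 fell (median 0.00). Me1, the malic enzyme gene, rose by 1.62 (SE 0.24, limma adjusted p = 0.000755), and G6pdx rose by 1.10 (SE 0.30, limma adjusted p = 0.0282, lost in 7 of 23 alternatives with log2 differences of 0.86 to 1.37), while Gclc, the catalytic subunit of glutathione synthesis, fell by 1.00 (SE 0.16, limma adjusted p = 0.00130). Of 6 tested AhR indicator genes only Nqo1, which the NRF2 list shares, was called and rose (0.80, SE 0.13, limma adjusted p = 0.00120), with Ugt1a6a and Cyp1a2 at 0.20 (SE 0.14 for both). Of 18 PPARalpha indicator genes, 1 rose and 5 fell (median -0.28), with Acot3 rising by 1.68 (SE 0.14, limma adjusted p = 6.98e-06). Among the genes that fell were Angptl4 (-0.99), Cyp4a10 (-0.82), Cd36 (-0.79) and Acadm (-0.28). Of the 5, 1, Angptl4, kept its call without FSH liver 1, FSH liver 3 or saline liver 6. In all, 19 of 61 indicator genes tested were called (31.1%, against 10.6% of all tested genes), and between 11 and 22 when 1 library was left out. The lowest count came without FSH liver 1 or FSH liver 3.

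Markers of the cell types that a liver holds were summed beside these results. Hepatocyte markers were at 102182 to 121081 CPM with FSH and at 97196 to 123030 CPM with saline, so the defining markers of the labelled tissue were present. Of these 10, 2 were called lower with FSH, Fgb (log2 difference -0.38) and Hnf4a (-0.44), calls lost in 8 and 9 of 23 alternatives. The 10 Kupffer cell and macrophage markers all had lower means with FSH on the log2 scale (median -0.56, 1 called, Cd68), with sums of 160.0 to 422.7 against 276.2 to 495.5 CPM. The 10 stellate cell and fibroblast markers likewise all lay lower (median -0.36, 1 called, Ecm1, a call lost in 12 of 23 alternatives), at 433.1 to 531.8 against 511.9 to 636.5 CPM. Cholangiocyte markers summed to 61.9 to 82.3 against 48.4 to 69.4 CPM and did not move as one. Of 9 tested, 6 lay higher and 3 lower on the log2 scale. Krt7 was called higher, while Sox9 lay lower (-0.50, SE 0.16, limma adjusted p = 0.0545) and was called in 5 of 23 alternatives. Endothelial markers summed to 177.7 to 266.5 against 206.6 to 243.2 CPM, with Lyve1 called lower.

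For the remaining cell types 0 of 16 tested markers were called by limma, edgeR or DESeq2, with 1, the acinar gene Cela2a, at an unadjusted p under 0.05. Cela2a was called in 6 of the 21 alternatives that tested it, voom and limma settings among them. Lymphocyte markers summed to 5.68 to 12.3 against 6.31 to 15.3 CPM, neutrophil markers to 1.40 to 3.04 against 0.913 to 3.89 CPM with Ly6g at 0, and erythroid markers to 464.4 to 790.5 against 424.8 to 1009.9 CPM. Adipocyte markers were at most at 4.41 CPM with Lep and Retn at 0, and pancreatic acinar markers under 1.21 CPM with Prss2 and Pnlip at 0. Within groups the summed lymphocyte markers went with Abcb1b (r = 0.70) and against Abcb1a (r = -0.66), and the summed stellate markers with Abcc1 (r = 0.70). The summed cholangiocyte markers went with Abcc4 (r = 0.66), as did the endothelial (0.59) and lymphocyte (0.51) sums, and the summed Kupffer cell and macrophage markers went with Abcc3 (r = 0.60). The endothelial and lymphocyte sums both had r = 0.56 with Slc47a1, and the acinar sum r = 0.50 with Abcc1. These 10 were the pairs, of 80 compared, with an absolute r of at least 0.5 over the 11 libraries. The part of these cell types in the pump values was not tested. Library depth, from 10801891 to 19909327 reads, had an r between -0.20 and 0.23 with each pump within groups.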

How the data were processed

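From each mouse, 1 NEBNext Ultra library of total liver RNA was sequenced with paired reads of 100 bases. One protocol text also mentions papain digestion of the liver. What the authors deposited is a single CPM matrix for 36788 Ensembl genes, in which every library adds up to 1000000 without filtering or scaling between libraries. The submitters' processing notes name FastQC 0.11.2, Trim Galore 0.3.3, cutadapt, STAR, RSEM and mm10 without a role, and the use of strand is not given in the sources used here. All values (100%, tolerance 0.05 reads) were whole multiples of the step of 1 read, which gave back 10801891 to 19909327 reads per library and was used for depth and for edgeR, DESeq2 and voom as alternatives.

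The 12733 genes whose mean reached 0.5 CPM entered limma 3.58.1 (R 4.3.3, intensity trend, Benjamini-Hochberg adjustment) as log2(CPM + 0.5). A fold change on this scale understates that of low genes. The thresholds were an adjusted p under 0.05 and, where said, an absolute log2 fold change over 1. All p-values measure the spread between the 11 mice. No batch is named in the labels. The pumps and gene lists were chosen with earlier results of these data known. Named genes are the pumps, from each other list the genes that passed both thresholds (at most 6) or, where none did, the 3 of smallest p, the neighbours of the pumps, and the 2 genes most like each pump. Of this set, uncalled cell type markers other than Sox9 and Cela2a and neighbours near 0 are left unnamed. Other called genes of the lists, Hlf, Nr1i2, Nr1i3, Nfe2l2 and markers at 0 were named after their values were seen. Symbols came from GENCODE M21 (35555 of the identifiers matched), whose identifier version for Abcb1b is newer than the table's, and positions are those of that annotation. The functions were tested on simulated data. The alternatives were other pseudocounts, filters, scalings and tests, array weights, a replicate block and leaving out each library (edgeR 4.0.16, DESeq2 1.42.0). Some results are not reported here, in the text or the plots.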

Additional observations from a re-analysis of the deposited data

How the results depend on the processing

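As a description of the chosen genes, the log2 difference over the 23 alternatives lay between 1.20 and 1.44 for Abcb1a. The other differences ranged from 0.02 to 0.65 for Abcb1b, 0.08 to 0.60 for Abcc4, 0.23 to 0.34 for Abcg2, 0.08 to 0.16 for Abcc6, -0.38 to -0.07 for Abcc1, -0.23 to -0.13 for Abcc3 and -0.04 to 0.08 for Slc47a1, which alone changed sign. Without a filter on low values, 3 other ABC genes, 1 SLC transporter and 11 indicator genes were called. edgeR called 8 other ABC genes and DESeq2 9, and array weights called 5 SLC transporters. The highest counts came with array weights, at 1892 genes over the table and 28 indicator genes, followed by DESeq2 with 1740 and 23. When 1 library was left out, the table held 803 to 1659 called genes, with 3 to 5 other ABC genes, 1 to 3 SLC transporters and 11 to 22 indicator genes. The lowest count over the table came without FSH replicate 1. With a replicate block, in which saline replicate 5 has no partner, 1210 genes were called and 251 past both thresholds, with 4 other ABC genes, 2 SLC transporters, 7 regulators and 20 indicator genes. Of 5 pairs with the same replicate number, 2 had a correlation of deviations over 0.1 (range -0.07 to 0.36). Pairs with different numbers ranged from -0.23 to 0.24, and 1 of 5 FSH libraries correlated best with its own number. These correlations cannot decide whether equal numbers mark paired mice. Counts behind Abcc1 (5 to 26 reads) and Abcb1b (8 to 96) limit both.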

Other observations

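The genes beside the pumps on their chromosomes were also read. Rundc3b, which lies 37.1 kb before Abcb1a in GENCODE M21 on the opposite strand, was too low to be tested and measured 0.655 ± 0.253 CPM (SD, n = 5) with FSH and 0.345 ± 0.0895 CPM (n = 6) with saline, with overlapping groups. Slc47a2, 0.541 kb from Slc47a1 and encoding a related cation exporter, stayed under 0.30 CPM in every library. Fopnl, 44.1 kb from Abcc1 on the opposite strand, rose from 13.7 ± 1.10 CPM with saline to 17.3 ± 1.50 CPM with FSH (log2 difference 0.33, SE 0.09, limma adjusted p = 0.0363), a call lost in 9 of 23 alternatives, with log2 differences of 0.29 to 0.37. Herc3 beside Abcg2, Ankrd40 beside Abcc3 and Nomo1 beside Abcc6 were not called, with log2 differences of 0.22 (SE 0.19), -0.04 (SE 0.08) and 0.01 (SE 0.12).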
